A study of Homo sapiens with 6 samples.

Results

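Transcripts of 9 enzymes that make serine and carry its one-carbon units on folate were measured in AsPC-1, an established human pancreatic adenocarcinoma line. The 9 genes were chosen by name: PHGDH, PSAT1 and PSPH of serine synthesis, SHMT1 and MTHFD1 of the cytosolic folate pathway, and SHMT2, MTHFD2, MTHFD1L and ALDH1L2 of the mitochondrial one. All 9 were found among the 26228 rows of the deposited table. The study compared 3 vehicle libraries with 3 libraries from cells exposed to DON (6-diazo-5-oxo-L-norleucine), a reactive mimic of glutamine that blocks the enzymes consuming it. Both groups stood in medium lacking serum for 24 h, and the dose is not given in the sources used here. One cell line was used, and whether its replicates were separate cultures is not stated. The p-values therefore reflect only the scatter among these 6 libraries, which may be technical.

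Serine is made from the glycolytic intermediate 3-phosphoglycerate. PHGDH oxidises it, PSAT1 adds an amino group taken from glutamate, and PSPH removes the phosphate. Serine hydroxymethyltransferases (SHMT1 in the cytosol, SHMT2 in mitochondria) then split serine into glycine and a one-carbon unit bound to folate. In mitochondria MTHFD2 oxidises that unit and MTHFD1L releases it as formate, while ALDH1L2 burns it to carbon dioxide. Formate leaves for the cytosol, where the trifunctional MTHFD1 attaches it to folate again for purine and thymidylate synthesis. Several of these genes are known targets of ATF4, the transcription factor of the amino acid response.

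Values are FPKM, fragments scaled to transcript length and library size, which allow levels of different genes to be set side by side. FPKM sums ranged from 525200 to 556950 per library. Absolute depth is unknown. The commonest ratio between the low values of 2 libraries, a rough estimate, put the others at 1.25 to 1.70 times the depth of vehicle 1. Of the 8 epithelial and carcinoma markers, KRT19, EPCAM, CDH1, MUC1, CEACAM5 and CEACAM6 exceeded 1 FPKM in every library, while KRT8 and KRT18 lacked a value in 3 libraries each. Acinar and endothelial markers stayed below 1 FPKM throughout, and CPA1 and PNLIP were at the floor of 0.01 in all libraries. The endocrine list reached 1 FPKM only through SST in vehicle 1, with INS and GCG at the floor. The fibroblast list summed to 141 to 172 FPKM in vehicle and 88.8 to 124 in DON, nearly all of it LUM. The immune list summed to 17.6 to 28.7 and 26.7 to 40.6 FPKM, nearly all of it CD68, with CD3E at the floor. MS4A1 of that list also reached 1 FPKM, though not in every library. Whether these shifts bear on the enzymes was not tested. All 10 genes of a proliferation list were called lower with DON in the test described below, against 20.6% of all tested genes (median log2 fold change -1.69). In bulk RNA, fewer cells of a type and less RNA per cell cannot be told apart.

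The mitochondrial enzymes MTHFD2, SHMT2 and MTHFD1L and the serine synthesis enzyme PSAT1 were higher with DON, and the cytosolic SHMT1 was lower. A gene was called at an adjusted p under 0.05 in limma's moderated test of log2(FPKM + 1), with Benjamini-Hochberg adjustment over 11471 tested genes. Of the 9 enzymes, 7 were tested, and each of these exceeded 1 FPKM in all 6 libraries. PHGDH and ALDH1L2 were too low for the test. Of the 7, 4 rose and 1 fell, against 18.3% and 20.6% of all tested genes and 38.9% called in either direction. Groups did not overlap, with DON above, in 4 of the 7, against 24.9% of all tested genes, and with DON below in 2, against 26.5%. The median log2 fold change was 0.61 over the 7 and -0.01 over all tested genes.

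**Figure D1:**
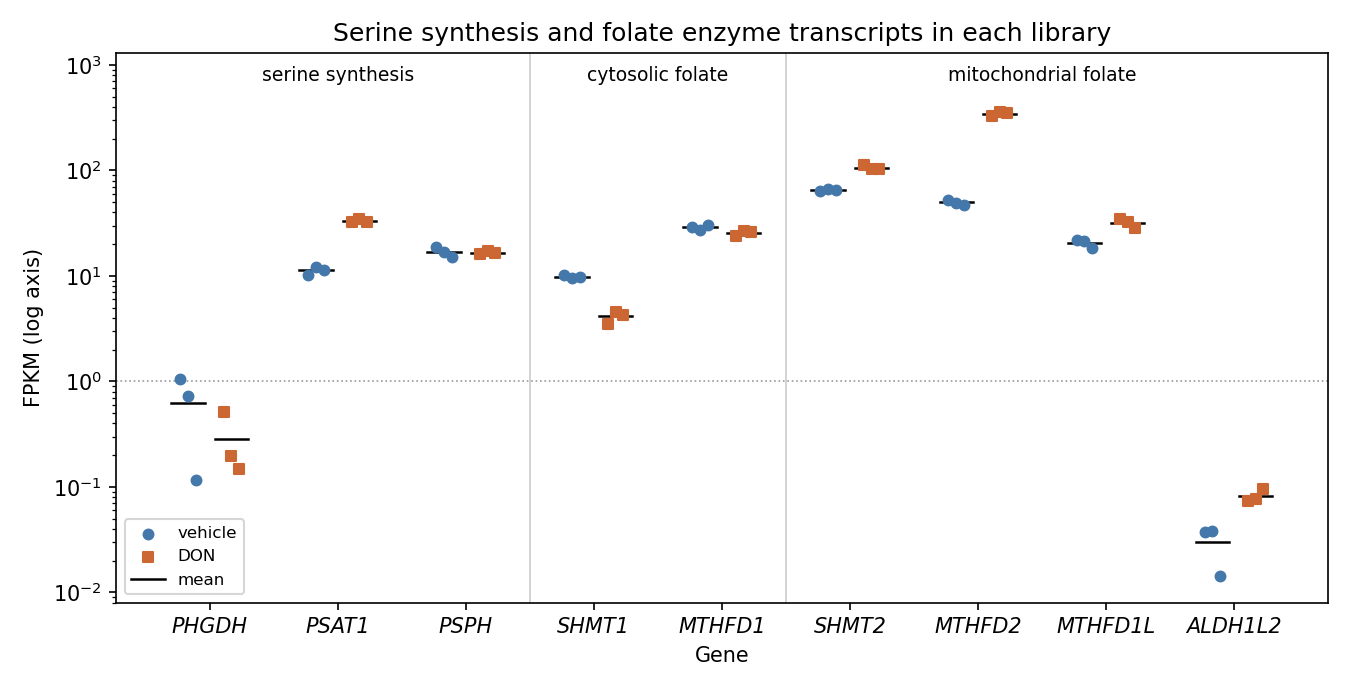
FPKM of the 9 enzymes (log axis) in 3 vehicle libraries (circles) and 3 DON libraries (squares), with a line at each group's mean and a dotted line at 1 FPKM. MTHFD2 stands at 47.3 to 52.5 in vehicle and 328 to 358 in DON, while PHGDH and ALDH1L2 lie near or below 1 in all libraries.

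MTHFD2, the mitochondrial dehydrogenase and cyclohydrolase, had the largest change. It stood at 52.5, 49.6 and 47.3 FPKM in vehicle libraries 1 to 3 and at 328, 358 and 352 FPKM in DON libraries 1 to 3. Every DON library thus lay far above every vehicle library, and the spread within each group was narrow. Means were 49.8 ± 2.62 FPKM in vehicle and 346 ± 16.1 FPKM in DON (SD, n = 3 per group), a 6.95-fold rise with a log2 fold change of 2.77 ± 0.08 SE (95% interval 2.58 to 2.97, limma adjusted p = 1.61e-05). That rise ranked 11 among 11471 tested genes. By level, MTHFD2 exceeded 83.8% of tested genes in vehicle and 98.2% in DON. Its pseudogene MTHFD2P1 did not exceed 0.0211 FPKM in any library.

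SHMT2, which feeds serine into the mitochondrial pathway, was already abundant. Its FPKM was 64.1, 67.1 and 65.0 in the vehicle libraries and 113, 103 and 103 in the DON libraries. The groups were well apart, with DON 1 the highest. It rose 1.63-fold, by 0.69 ± 0.08 on the log2 scale (95% interval 0.51 to 0.88, limma adjusted p = 0.00079).

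MTHFD1L, the mitochondrial formate-releasing synthetase, stood at 22.1, 21.2 and 18.4 FPKM in vehicle and 34.9, 32.3 and 28.4 FPKM in DON. The groups did not overlap, and library 3 was the lowest in each. The rise was 1.55-fold, or 0.61 ± 0.11 on the log2 scale (95% interval 0.35 to 0.87, limma adjusted p = 0.00563).

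ALDH1L2, which oxidises the formyl unit instead of releasing formate, was barely detected. Its values were 0.0372, 0.0384 and 0.0143 FPKM in vehicle and 0.0735, 0.0761 and 0.0965 FPKM in DON. The DON libraries were all higher, but every value lay below 0.1 FPKM. In a fit without a filter on low values its log2(FPKM + 1) difference was 0.07 (limma adjusted p = 0.0419), where 5.31% of 26187 genes were called higher. ALDH1L1, the cytosolic counterpart, stayed between the floor of 0.01 and 0.0194 FPKM. The mitochondrial isozyme MTHFD2L stood at 1.39 ± 0.253 FPKM in vehicle and 1.34 ± 0.203 in DON (log2 fold change -0.03, 95% interval -0.35 to 0.30, limma adjusted p = 0.893). Its sign turned positive, still uncalled, under quantile normalization and without vehicle 3 or DON 1.

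In the cytosol SHMT1 fell. It stood at 10.3, 9.60 and 9.74 FPKM in the vehicle libraries and 3.53, 4.59 and 4.29 in the DON libraries. All DON values were below 5 FPKM and all vehicle values above 9. The mean went from 9.88 ± 0.369 to 4.14 ± 0.544 FPKM (n = 3 per group), 2.39-fold lower, with a log2 fold change of -1.09 ± 0.11 SE (95% interval -1.34 to -0.83, limma adjusted p = 0.000468). SHMT1 was the 403rd largest fall among the tested genes.

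MTHFD1, the cytosolic trifunctional enzyme, moved little. Its FPKM was 29.1, 27.1 and 30.5 in vehicle and 23.8, 26.8 and 26.2 in DON. The lowest vehicle library lay just above the highest DON library. The log2 fold change was -0.17 ± 0.09 SE (95% interval -0.38 to 0.04), and it did not pass the test (limma adjusted p = 0.173). With a term for the sign of the second principal component of the libraries, described below, it passed as lower (log2 fold change -0.21, limma adjusted p = 0.0245). That term was derived from the same values being tested. Under it 2884 genes were called higher and 3147 lower, more than in the main fit.

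Of the 3 serine synthesis enzymes, 1 rose, 1 did not pass the test and 1 was too low for it. PSAT1, the aminotransferase, stood at 10.2, 12.3 and 11.5 FPKM in vehicle and 32.2, 34.4 and 32.7 FPKM in DON. All DON libraries were well above all vehicle libraries. Means were 11.3 ± 1.02 FPKM in vehicle and 33.1 ± 1.12 FPKM in DON (n = 3 per group), a 2.92-fold rise with a log2 fold change of 1.47 ± 0.09 SE (95% interval 1.25 to 1.69, limma adjusted p = 9.14e-05). It ranked 130 among all rises.

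PSPH, the last step, stood at 18.9, 16.99 and 15.3 FPKM in vehicle and 16.0, 17.3 and 16.5 FPKM in DON. The DON values fell inside the vehicle range. The log2 fold change was -0.03 (95% interval -0.27 to 0.20, limma adjusted p = 0.818). Its sign turned positive without vehicle 1, still uncalled. PSPH, PSAT1 and MTHFD2 have pseudogene copies in the genome, and how reads shared with them were assigned is not stated, so their values are uncertain to that extent.

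PHGDH, the entry step, was low, below 1 FPKM in every library but vehicle 1. It stood at 1.05, 0.729 and 0.116 FPKM in the vehicle libraries and 0.511, 0.195 and 0.149 in the DON libraries. The groups overlapped, and the vehicle libraries spanned a wider range than the DON libraries. Without a filter the log2(FPKM + 1) difference was -0.31 (95% interval -1.02 to 0.40, limma adjusted p = 0.70). The libraries also divided along their second principal component, with 19.7% of the variance. Vehicle 1, vehicle 2 and DON 1 lay on its negative side and vehicle 3, DON 2 and DON 3 on its positive side. PHGDH was 0.511 to 1.05 FPKM on the negative side and 0.116 to 0.195 on the positive side, whichever the treatment. The part of this division in the PHGDH values was not tested. Within the negative side the PHGDH difference between DON and vehicle was -0.32 on the log2(FPKM + 1) scale, and within the positive side it was 0.07. The groups of the called enzymes did not overlap, so their direction could not differ between the sides, and only the sizes could. MTHFD2 differed by 2.66 and 2.88, SHMT2 by 0.78 and 0.66, MTHFD1L by 0.66 and 0.69, PSAT1 by 1.44 and 1.47 and SHMT1 by -1.27 and -0.98 on the negative and positive sides. PSPH had -0.15 and 0.14, and MTHFD1 had -0.23 and -0.19. Each side holds 1 or 2 libraries per group, too few for a test within a side.

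**Figure D2:**
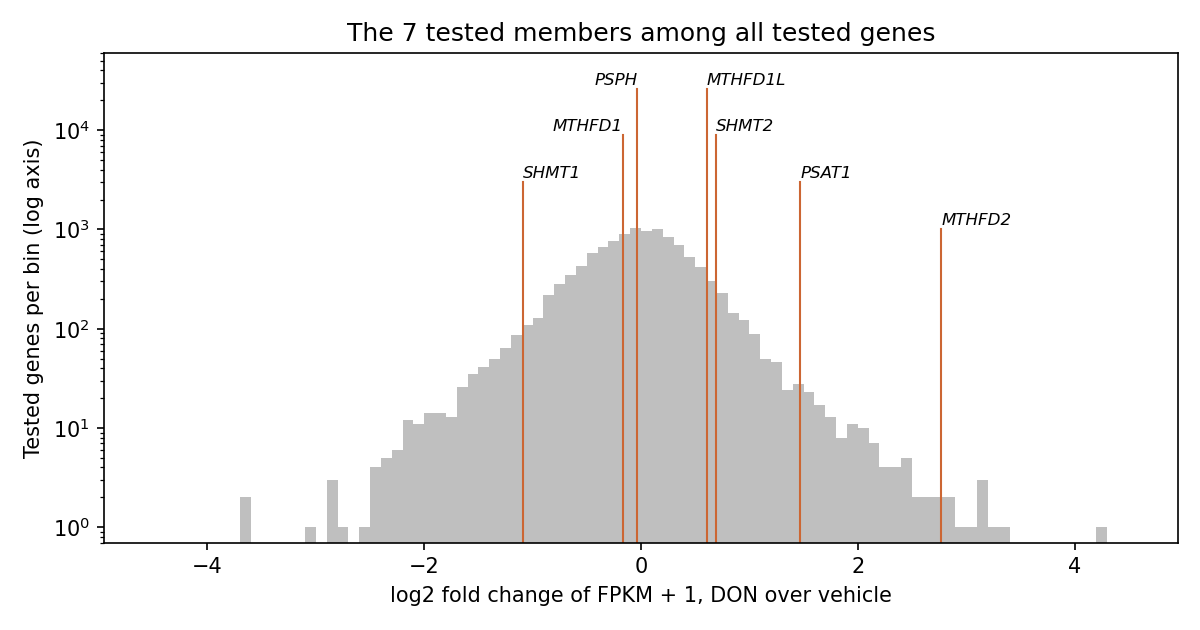
Histogram of the log2 fold change (DON over vehicle, log2 of FPKM + 1) of all 11471 tested genes, with the count per bin on a log axis and a line for each of the 7 tested enzymes. MTHFD2 at 2.77 lies in the far upper tail, PSPH at -0.03 and MTHFD1 at -0.17 lie in the centre, and SHMT1 at -1.09 lies in the lower part.

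The order of the levels changed with DON. In vehicle it ran SHMT2, MTHFD2, MTHFD1, MTHFD1L, PSPH, PSAT1, SHMT1, PHGDH and ALDH1L2. The ranges of MTHFD1L and PSPH overlapped, as did those of PSAT1 and SHMT1, and the other neighbours had separate ranges. In DON MTHFD2 came first and SHMT2 second. PSAT1 moved up to the third place, where its range overlapped that of MTHFD1L. MTHFD1, PSPH, SHMT1, PHGDH and ALDH1L2 followed with separate ranges.

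Ratios within a library set the compartments against each other and depend little on the scaling between libraries. There were 11 such ratios, on the scale of log2(FPKM + 1), and each was compared by a two-sided exact permutation test over the 6 libraries. With 3 against 3 the smallest p possible is 0.1 (0.11 after Benjamini-Hochberg adjustment over the 11), so no ratio could pass 0.05. The log2 ratio of SHMT2 to SHMT1 was 2.53, 2.68 and 2.62 in vehicle and 4.66, 4.22 and 4.303 in DON, an increase of 1.78 (exact permutation p = 0.1). The mitochondrial isozyme had thus 6.23 to 6.99 times the FPKM of the cytosolic one in vehicle and 22.4 to 32.1 times in DON. As a share of the FPKM of both, SHMT2 went from 86.9% ± 0.668 to 96.2% ± 0.652 (SD, n = 3 per group, exact permutation p = 0.1).

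The ratio of MTHFD2 to MTHFD1 moved further. It was 0.83, 0.85 and 0.62 in vehicle and 3.73, 3.69 and 3.70 in DON on the log2 scale, an increase of 2.94 (exact permutation p = 0.1). The DON libraries were nearly identical in it. MTHFD2 made up 63.3% ± 2.15 of the summed FPKM of MTHFD2 and MTHFD1 in vehicle and 93.1% ± 0.107 in DON (SD, n = 3 per group). MTHFD1L over MTHFD1, the synthetase in each compartment, went from -0.47 ± 0.195 to 0.30 ± 0.215 (n = 3 per group, exact permutation p = 0.1). In FPKM, MTHFD1L was below MTHFD1 in all vehicle libraries (0.605 to 0.784 times) and above it in all DON libraries (1.08 to 1.47 times).

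Summed over SHMT2, MTHFD2 and MTHFD1L, mitochondrial transcripts reached 136 ± 4.38 FPKM without DON and 484 ± 8.70 FPKM with it (SD, n = 3 per group). The cytosolic sum of SHMT1 and MTHFD1 went from 38.7 ± 1.83 to 29.7 ± 2.14 FPKM. The first sum was 3.25 to 3.76 times the second in vehicle and 15.7 to 17.4 times in DON. MTHFD2 carries most of that difference, so these sums describe mainly 1 gene.

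Within the mitochondrial set the enzymes did not rise in step. MTHFD2 over SHMT2 went from -0.39 ± 0.092 to 1.69 ± 0.145 on the log2 scale, and MTHFD2 over MTHFD1L from 1.24 ± 0.066 to 3.40 ± 0.196 (n = 3 per group, exact permutation p = 0.1 for each). MTHFD2 was below SHMT2 in every vehicle library and 2.89 to 3.47 times as high in the DON libraries. Over its isozyme MTHFD2L the log2 ratio rose by 2.80.

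Between serine synthesis steps, PSAT1 over PSPH turned from -0.55 ± 0.239 to 0.96 ± 0.008 on the log2 scale (n = 3 per group, exact permutation p = 0.1). PSAT1 had 0.543 to 0.752 times the FPKM of PSPH in vehicle and 1.99 to 2.01 times in DON. The ratios to PHGDH rest on a gene with low and scattered values. PSAT1 over PHGDH was 1.78 higher in DON (exact permutation p = 0.1), but with a pseudocount of 0.1 or none the groups overlapped and the difference was 2.27 or 2.41 (exact permutation p = 0.2 for each). In FPKM, PSAT1 had 9.77 to 99.0 times the level of PHGDH in vehicle and 63.1 to 219 times in DON. PSPH over PHGDH overlapped between groups at each pseudocount. It differed by 0.28 with a pseudocount of 1 (exact permutation p = 0.2), by 0.70 with 0.1 (exact permutation p = 0.4) and by 0.82 with none (exact permutation p = 0.5). Ratios that involve ALDH1L2 have a member below 0.1 FPKM and are not described further.

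**Figure D3:**
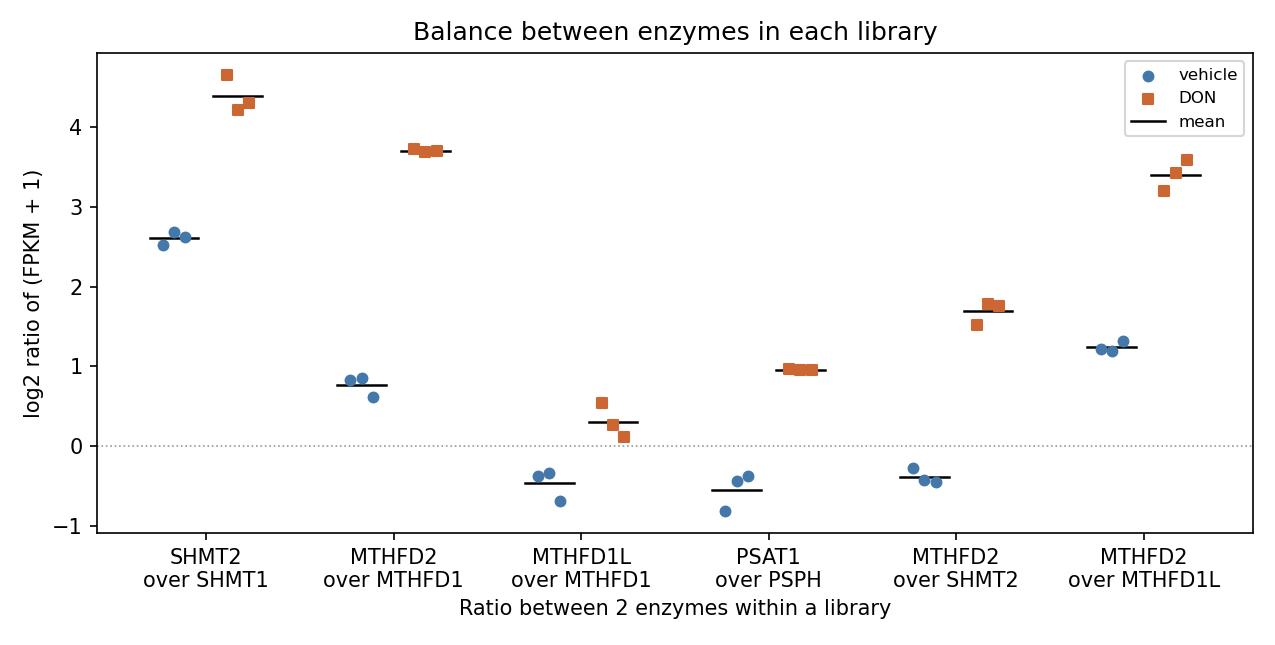
Log2 ratio of FPKM + 1 between pairs of enzymes in 3 vehicle libraries (circles) and 3 DON libraries (squares), with lines at group means and a dotted line at equal levels. All 6 ratios shown are higher in every DON library than in every vehicle library. MTHFD2 over MTHFD1 has the largest shift (2.94) and MTHFD1L over MTHFD1 the smallest (0.78).

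The sequence before the starts of the enzymes was read from RefSeq (GRCh38.p14), whose promoter windows cover 250 bases before and 50 after a start. Windows were matched by symbol for 6 of the 9 genes: PHGDH, PSAT1, SHMT1, MTHFD1, MTHFD1L and MTHFD2. The deposited values were made on hg19, so they are joined to these windows by gene symbol only. Shown first are 2 genes that rose and 1 that fell, each from 250 to 61 bases before its start, 5′ to 3′ on the gene's strand. Capitals mark CCAAT, the box bound by NF-Y. MTHFD2 lies at chr2:74198365-74198554 on the + strand, PSAT1 at chr9:78296875-78297064 on the + strand and SHMT1 at chr17:18363611-18363800 on the - strand.
MTHFD2: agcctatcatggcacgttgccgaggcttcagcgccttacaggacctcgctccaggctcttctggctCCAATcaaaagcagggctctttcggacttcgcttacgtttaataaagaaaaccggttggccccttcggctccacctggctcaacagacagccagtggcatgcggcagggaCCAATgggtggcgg
PSAT1: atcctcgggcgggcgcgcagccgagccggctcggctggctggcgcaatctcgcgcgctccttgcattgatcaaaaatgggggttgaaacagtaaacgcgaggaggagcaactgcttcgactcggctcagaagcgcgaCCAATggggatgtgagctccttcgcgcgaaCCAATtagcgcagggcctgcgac
SHMT1: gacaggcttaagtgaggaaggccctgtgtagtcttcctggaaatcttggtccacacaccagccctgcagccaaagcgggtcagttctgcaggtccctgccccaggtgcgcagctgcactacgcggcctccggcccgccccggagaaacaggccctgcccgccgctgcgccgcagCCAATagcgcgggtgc

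A CCAAT box on either strand was found in the windows of all 6 genes, those that rose, fell or did not pass the test and the untested PHGDH alike. It was found in 39.7% of the 27305 genes with a window. The C/EBP-ATF response element, searched as TGATGNAA on both strands, was present in 1 of the 6, MTHFD1L, and in 4.46% of all genes. MTHFD1L has 4 windows. The match lies at chr6:150866357-150866364, 129 and 90 bases before 2 of the RefSeq starts of MTHFD1L and 25 bases after another. It is shown with its flanks (30 bases, chr6:150866346-150866375, + strand) beside the match in the window of ASNS, the asparagine synthetase gene that is a classic ATF4 target (chr7:97872458-97872487, - strand), with the element in capitals.
MTHFD1L: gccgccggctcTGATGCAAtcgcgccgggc
ASNS: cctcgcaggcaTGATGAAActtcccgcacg

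ASNS, whose match lies 68 bases before its start, rose 8.51-fold, more than any of the 9 enzymes. MTHFD1L rose 1.55-fold. The windows of MTHFD2 and PSAT1 do not hold these letters, and SHMT2 has no matched window. Whether the element bears on any of these changes was not tested. The E-box CACGTG was found for MTHFD1 and MTHFD1L (8.77% of all genes). The antioxidant response element TGACNNNGC was found for MTHFD2 alone, 7 bases after its start (16.1% of all genes). These matches are letters in a window of 300 bases and no measure of binding.

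The pathway around the 9 enzymes was read from lists of 59 other genes, of which 43 were tested. Of the 43, 7 rose (16.3%, against 18.3% of all tested genes) and 13 fell (30.2%, against 20.6%), with a median log2 fold change of -0.23. Without DON 2 the falls among them were 8, and with the term for the second principal component they were 21. The same shares of all tested genes, 18.3% higher and 20.6% lower, apply to each list below.

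Other cytosolic folate enzymes gave 0 rises and 3 falls among 6 tested (median -0.30). In limma 0 rose and 3 fell also at an unadjusted p under 0.05. With any single library left out, or without a filter, 2 genes of this list were called lower. TYMS, which makes thymidylate and oxidises folate in doing so, fell from 61.7 ± 6.13 to 22.02 ± 0.532 FPKM (log2 fold change -1.44, limma adjusted p = 0.000114). TYMS is also a gene of S phase, and the proliferation marker MKI67 fell from 15.7 ± 3.48 to 2.56 ± 0.228 FPKM. The part of proliferation in the falls of TYMS and SHMT1 was not tested.

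The other mitochondrial folate genes were MTHFD2L, the formyltransferase MTFMT, the reductase DHFR2 (listed as DHFRL1) and the folate carrier SLC25A32. None of these 4 was called in either direction by limma, nor at an unadjusted p under 0.05, and their log2 fold changes ran from -0.30 to 0.08. SLC25A32 stood at 23.5 ± 1.15 FPKM in vehicle and 24.9 ± 0.623 in DON. Of the glycine cleavage system, which splits glycine in mitochondria, 3 genes were tested and 0 called by limma, while 2 were lower at an unadjusted p under 0.05. Without vehicle 3, without a filter, with a replicate block or with the term for the second principal component, 1 gene of the list was called lower.

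Transport of serine and glycine held most of the rises. Of 9 tested genes 6 rose and 1 fell, against 18.3% and 20.6% of all tested genes, with a median of 0.54. SLC1A4, a carrier of alanine, serine and cysteine, stood at 0.135, 0.255 and 0.312 FPKM in vehicle and 3.07, 3.34 and 3.22 FPKM in DON (log2 fold change 1.77, limma adjusted p = 0.000116). The glycine transporter SLC6A9 stood at 0.674, 1.03 and 0.784 FPKM in vehicle and 5.13, 4.57 and 4.99 FPKM in DON (1.69, limma adjusted p = 0.000135). Both were thus low in vehicle and higher in every DON library. SLC1A4 passed the filter on low values only through the DON libraries. SLC6A9 had 1 vehicle library above 1 FPKM, so it also needed the DON libraries to pass. With a filter at 5 FPKM neither was tested. Under that filter 4 genes of the list were called higher, against 1860 of all genes. In the fit without a filter both were still called higher (limma adjusted p = 0.00127 for SLC1A4 and 0.00282 for SLC6A9). In that fit 5 genes of the list were called higher, against 5.31% of 26187 genes. The pseudocount of 1 compresses both changes: with 0.1 the log2 fold change was 3.35 for SLC1A4 and 2.44 for SLC6A9, and the ratios of mean FPKM were 13.7 and 5.90. The mitochondrial glycine carrier SLC25A38 rose 0.89 on the log2 scale. SFXN2, of the family of mitochondrial serine carriers, was the gene that fell, by 0.51. Its call was lost without vehicle 2, without DON 2 and without a filter, and a filter at 5 FPKM left it out of the test.

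Genes that use or break down serine gave 0 rises and 3 falls among 7 tested (median -0.46, in limma also 0 and 3 at an unadjusted p under 0.05). Among these falls, SRR stood at 1.76, 1.42 and 1.78 FPKM in vehicle and 0.966, 0.7855 and 0.817 FPKM in DON. It thus passed the filter on low values only through the vehicle libraries. Without a filter 2 genes of the list were called lower, against 1551 of 26187 genes, and with a filter at 5 FPKM also 2. SPTLC2, which joins serine to a fatty acid to start sphingolipids, fell from 18.4 ± 1.34 to 9.75 ± 0.058 FPKM (-0.85, limma adjusted p = 0.000498). GLYCTK, the glycerate kinase, went from 48.3 ± 12.6 to 20.7 ± 4.54 FPKM (-1.17, limma adjusted p = 0.00732), with vehicle 3 far below the other vehicle libraries at 33.8 FPKM. Of the glycolytic genes on either side of 3-phosphoglycerate, the substrate of PHGDH, 0 of 4 tested rose and 3 fell (median -0.71; likewise 0 and 3 in limma at an unadjusted p under 0.05). PGAM1, which turns 3-phosphoglycerate towards pyruvate, fell from 35.6 ± 3.97 to 20.3 ± 0.248 FPKM (-0.77, limma adjusted p = 0.00123), and the next enzyme ENO1 by 0.79 on the log2 scale.

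In the methionine cycle and transsulfuration 1 of 7 rose and 2 fell, with a median of -0.23. MAT2A, which makes S-adenosylmethionine, fell from 108 ± 1.78 to 60.5 ± 3.11 FPKM (-0.83, limma adjusted p = 0.000361), while its regulatory partner MAT2B rose by 0.24 (limma adjusted p = 0.0426). That call for MAT2B was lost under quantile normalization, in limma without a trend and when any library other than DON 1 was left out. AHCYL1, a relative of the hydrolase of S-adenosylhomocysteine, fell by 0.37 (limma adjusted p = 0.0378), a call lost when any library other than DON 3 was left out. Among folate uptake and retention genes 0 of 3 rose and 1 fell (0 and 2 in limma at an unadjusted p under 0.05). That gene was FPGS, which adds glutamates to folate and so keeps it in the cell. It stood at 59.2, 55.0 and 37.2 FPKM in vehicle and 31.8, 21.4 and 18.7 in DON (-1.05, limma adjusted p = 0.0129), and lost its call without DON 2 (limma adjusted p = 0.0522). Library 3 was the lowest of each group in FPGS. Within each group FPGS was also higher on the negative side of the second principal component. With the term for that component, derived from the same values, its log2 fold change was -0.84 (limma adjusted p = 0.000137). That of GLYCTK was -0.97 under this term, against -1.17 in the main fit.

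**Figure D4:**
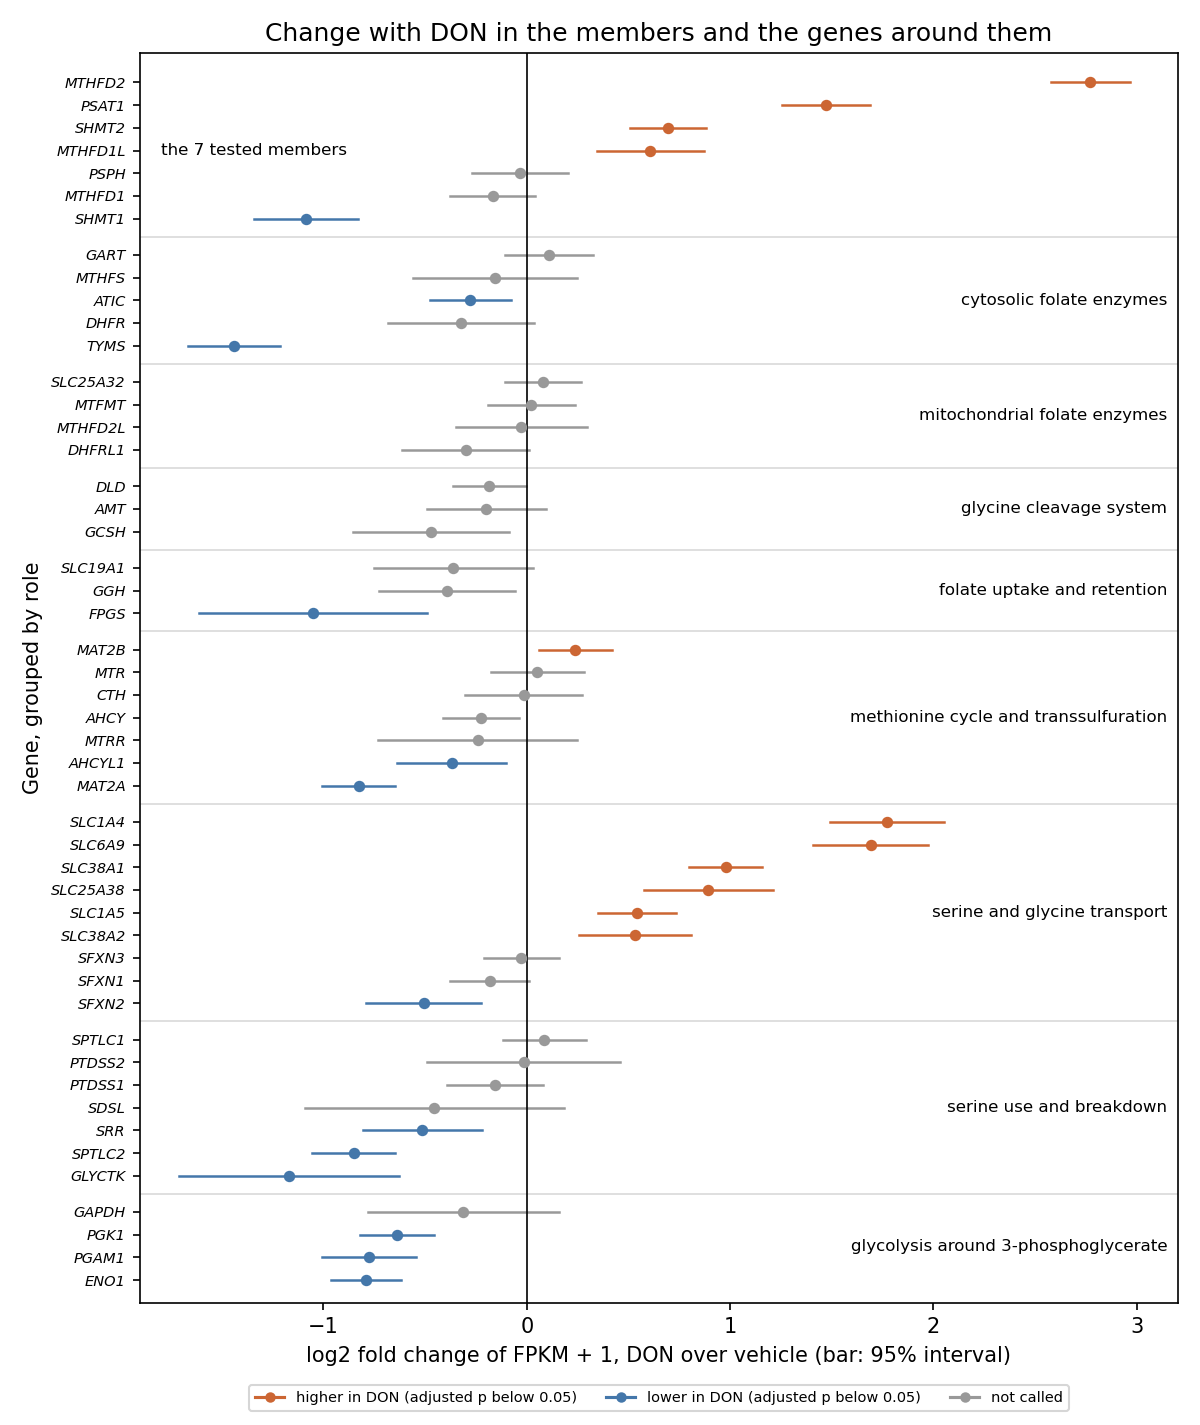
Log2 fold change of FPKM + 1 (DON over vehicle, points) with 95% intervals from limma (bars) for the 7 tested enzymes at the top and 42 other tested genes grouped by role. The serine and glycine transport group holds 6 of the 7 rises among the other genes, and the 4 points of the glycolytic group around 3-phosphoglycerate lie to the left of 0, with the interval of GAPDH reaching across it.

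ATF4 itself stood at 191, 202 and 179 FPKM in vehicle and 420, 383 and 342 FPKM in DON (log2 fold change 0.99, limma adjusted p = 0.000557). All 8 genes of a short ATF4 list were called higher, against 18.3% of all tested genes, with a median of 1.63. Whether ATF4 acts on the 9 enzymes here was not tested.

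The tested genes with the pattern most like MTHFD2 across the 6 libraries, by Pearson correlation of log2(FPKM + 1), were SSR3, TNPO1 and TXNDC15 (r of 0.9998, 0.9996 and 0.9994). SSR3, a subunit of the translocon-associated complex of the endoplasmic reticulum, went from 45.4 ± 1.21 to 90.9 ± 1.21 FPKM, a smaller change of the same shape. For SHMT1 the closest were FKBP5, XRCC5 and PSME3 (r of 0.9995, 0.9981 and 0.998). FKBP5, a co-chaperone of steroid receptors, went from 17.2 ± 0.491 to 9.42 ± 0.692 FPKM. Such values mostly reflect the step between the groups: 944 genes exceeded an r of 0.95 with MTHFD2 and 830 with SHMT1.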

How the data were processed

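The authors deposited 1 table of FPKM values with a row per gene symbol and a column per library. Poly(A) RNA, directional libraries and single reads of 75 bases are given per the labels' protocols. STAR and hg19 are named in the submitters' processing notes, without versions. The sources used here do not name the program behind FPKM, the annotation or the use of strand. The lowest value was 0.01, and 41 rows with a failure mark were left out.

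Values were taken as log2(FPKM + 1), which understates changes of genes near 1 FPKM. A gene entered the test if 3 or more libraries reached 1 FPKM. The test was limma 3.58.1 (R 4.3.3) with an intensity trend, two-sided, with Benjamini-Hochberg adjustment over all tested genes. The script was tested on simulated data. Python 3.11.15, pandas 2.3.3, numpy 2.4.6, scipy 1.17.1 and matplotlib 3.10.9 were used. Folds beside FPKM are ratios of means, and log2 fold changes come from the fit. Other genes named are the up to 2 called genes of each list with the largest change, ALDH1L1, MTHFD2L, ATF4, ASNS, MKI67 and the closest patterns. Of the genes this rule names, 1 is not reported here. MTHFD2P1, MTFMT, DHFR2, SLC25A32, SLC25A38, SFXN2, SRR, MAT2B, GAPDH and the untested genes of the closing section were named after their values were seen. Members, lists and tests were chosen with earlier results of these data known. Alternatives were another pseudocount, other filters, 2 scalings, no trend, a replicate block, a term for the second principal component, and leaving out each library. Depth is unknown, so no counting interval is given.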

Additional observations from a re-analysis of the deposited data

How the results depend on the processing

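Calls for MTHFD2, SHMT2, MTHFD1L, PSAT1 and SHMT1 kept their direction and stayed past the threshold in all 14 alternatives each, with log2 fold changes of 2.74 to 2.81, 0.65 to 0.72, 0.53 to 0.69, 1.41 to 1.54 and -1.24 to -1.0003. The highest adjusted p among them was 0.0316, for MTHFD1L without a filter. The groups of these enzymes did not overlap, so leaving out a library could not turn their direction. With the term for the second principal component, MTHFD1 was called lower (-0.21, limma adjusted p = 0.0245), which made 2 called falls among the members, and 21 other pathway genes fell. That term was derived from the same values being tested. PSPH, uncalled throughout, ran from -0.106 to 0.0399 when each library was left out, with the positive value without vehicle 1. MTHFD2L, also uncalled, turned positive with quantile normalization (0.0370), and ran from -0.0992 to 0.0526 when each library was left out, positive without vehicle 3 (0.0526) and without DON 1 (0.0312). Leaving out a library gave 1212 to 2133 genes called higher and 1485 to 2523 called lower, with the lowest numbers without DON 2, and 8 to 13 falls among other pathway genes. Without a filter 1391 genes were called higher and 1551 lower. Without a filter FPGS (adjusted p = 0.0966), GLYCTK (0.0665) and AHCYL1 (0.123) lost their calls. Within single lists the numbers of falls also moved. They ran from 0 to 2 of the folate uptake genes, 1 to 4 of the methionine cycle genes and 0 to 2 of the transport genes. Of the cytosolic folate genes they ran from 2 to 5, with 5 under the term for the second principal component. The 11 ratios kept their direction in all 98 alternative values, where an exact test could not pass 0.05. Many of these values could not reverse. The replicate block leaves each difference unchanged. For every ratio but PSPH over PHGDH the groups did not overlap, which fixes the direction when a library is left out.

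Same-numbered libraries of the 2 groups had deviations correlated at 0.254, -0.184 and 0.502, so the numbers were not taken as pairs. With a replicate block the members gave 4 rises and 1 fall, and all genes 2551 rises and 2863 falls. FPKM holds no counts, which limits PHGDH and ALDH1L2 most: differences between values below 1 FPKM cannot be given a counting error.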

Other observations

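Of the 59 pathway genes around the 9 enzymes, 16 were too low to test, and 15 of these stayed below 1 FPKM in every library. They include enzymes of folate and methyl metabolism that are typical of liver. MAT1A, which makes S-adenosylmethionine there, did not exceed 0.191 FPKM, and BHMT, which remethylates homocysteine with betaine, did not exceed 0.207. GNMT, FTCD and ALDH1L1 had highest values of 0.125, 0.0239 and 0.0194 FPKM. The glycine decarboxylase GLDC, the core of the glycine cleavage system, was at the floor in 4 libraries and reached 0.0699 FPKM in DON 2. The folate receptor FOLR1 stood at 0.0706 to 0.64 FPKM in vehicle and 0.328 to 0.364 in DON, and FOLR2, BHMT2 and SLC7A10 were at the floor of 0.01 in all 6 libraries.

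Several low genes had their highest value in vehicle 1. PGAM2 reached 2.59 FPKM there and at most 0.367 elsewhere in vehicle. CBS, which starts transsulfuration, was at 0.631 against at most 0.0558 in the other libraries, and PHGDH was at 1.05. Other low genes peaked elsewhere: FTCD and SLC46A1 in vehicle 2, GLDC in DON 2, and ALDH1L1, GNMT and SDS in DON 3. The share of all low genes with their peak in vehicle 1 was not counted. Vehicle 1 held 23 of the 72 failure marks and had the most values at the floor (45.8% of rows, against 40.3% to 42.2% in the other libraries). Its rough depth estimate was also the lowest, with the other libraries at 1.25 to 1.70 times that depth.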
